A study of Mus musculus with 4 samples.

Results

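The cytosolic ribosomal protein genes were taken as all genes whose symbol begins with Rpl or Rps followed directly by a digit, leaving out the Rps6k kinases and symbols that contain -ps. The rule found 82 genes of the 32285 in the expression tables, 49 named Rpl and 33 named Rps. It used symbols only, with no measured value, and it misses subunits with other names (such as Rplp0, Rplp1, Rplp2, Rpsa and Fau), which were followed as a separate list. It also takes in some genes that are not core subunits, among them tissue-restricted paralogs and Rps19bp1, a protein that binds Rps19.

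The cytosolic ribosome reads mRNA into protein and is built from ribosomal RNA and proteins of a small subunit (Rps) and a large subunit (Rpl). Because the subunits join in fixed proportions, their mRNAs are usually made and translated together, and most open with a run of pyrimidines at the cap, the 5′ terminal oligopyrimidine (TOP) tract, through which growth signalling controls their translation. These mRNAs are short, stable and abundant, so in tumors they take a large part of any captured mRNA pool.

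Visium spatial transcriptomics, a method that captures tissue RNA on a grid of barcoded spots, was available for 4 tumor sections, each from a different host. All hosts were female F1 mice aged 8 to 12 weeks with a C57BL/6J parent. The other parent was CC075/UncJ in the 2 hosts called CC075F1, classed by the study as a responder strain to anti-PD-1, and CC080/TauUncJ in the 2 hosts called CC080F1, classed as a non-responder strain; both are Collaborative Cross lines, recombinant inbred mice from several founders. Every host carried a subcutaneous tumor of MC38 cells (colon carcinoma, derived from C57BL/6 mice). Hosts were given 200 µg of isotype control antibody when the tumor measured 75 to 110 mm3 and were killed 48 hours afterwards. No tumor treated with anti-PD-1 was analysed here. The reference genome is that of C57BL/6J, so reads of the Collaborative Cross alleles of host cells could map less well, an effect that was not tested. A spot covers a small region with several cells, so fewer cells of a type and less RNA per cell cannot be told apart.

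The sections held 82594649 to 146460975 unique molecular identifiers (UMIs, each marking 1 captured RNA molecule) on 2710 to 3276 spots, with medians of 31158 to 41740 UMIs per spot; CC075F1 replicate 2 was the deepest. Between 2016 and 2793 spot barcodes were shared by any pair of sections, since every slide area uses the same barcode grid; they are shared positions, not shared cells. Only CC075F1 replicate 2 had spots (34) with at least 1% of UMIs from keratinocyte, muscle or adipocyte markers. The labelled line is of epithelial origin, but 7 epithelial markers (Krt8, Krt18, Krt19, Epcam, Cdh1, Vil1, Cdx2) summed to only 0.888 to 2.77 CPM (a gene's UMIs scaled by the section total, the usual counts-per-million unit), so tumor cells could not be marked by them.

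To show what the family has in common at the sequence level, 30 bases that hold the pyrimidine tract near the listed transcription start are given for members that the results turn on and in which one was found, from RefSeq promoter sequences on GRCm38.p6, 5′ to 3′ on the strand of the gene. Capitals mark the pyrimidine tract, searched as a run of at least 8 bases opening with C and made only of C and T, from 10 bases before to 50 bases after the listed start; the tract, and with it the window, often lies downstream of that start. The windows lie at chr17:24720083-24720112 (plus strand, Rps2), chr14:18270971-18271000 (minus, Rpl15), chr11:114668570-114668599 (plus, Rpl38), chr2:180257399-180257428 (plus, Rps21), chr10:23787182-23787211 (minus, Rps12), chr10:128549119-128549148 (minus, Rpl41), chr12:28635912-28635941 (minus, Rps7), chrX:74270836-74270865 (plus, Rpl10), chr3:28805501-28805530 (plus, Rpl22l1) and chr12:69184019-69184048 (minus, Rpl36al).
Rps2: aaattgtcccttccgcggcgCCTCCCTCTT
Rpl15: tgggagaaagCCTTCTTCCTTTCCTCTggc
Rpl38: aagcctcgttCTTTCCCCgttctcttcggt
Rps21: ggaggcacgagctaCTTCCTTTCTgcgctc
Rps12: ccaccgccggCCTTTTCCCCTgccgccgcc
Rpl41: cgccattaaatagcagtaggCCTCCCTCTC
Rps7: gctgtccccaCCTCTTTTCTTCCgccaccc
Rpl10: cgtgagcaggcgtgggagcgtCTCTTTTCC
Rpl22l1: caagcccgttCTCTTCCCacggctgcagct
Rpl36al: ctctgttcgtCCCTTTCCTgttcggcgcgt
Such a tract was found in 44 of the 63 members with a sequence (69.8%), against 18.9% of 27025 genes of any kind in the same window. On the opposite strand it was found in 6.35% of members and 19.6% of all genes. Of the members at the ends of the comparisons that follow, none was found in these windows of Rpl13, Rps28, Rpl7l1, Rps4x, Rpl23 and Rpl27. Others at those ends, among them Rps29, Rpl21, Rpl29 and Rps20, had no matched sequence and were not searched. Where a gene had several listed starts, the start with the longest tract was used, for members and all genes alike. The tracts of Rps2, Rpl41 and Rpl10 reach the last base searched and may be longer than shown.

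Ribosomal protein mRNA made up a large part of each library. The 82 genes took 25.9% and 33.8% of all UMIs in replicates 1 and 2 of CC075F1, against 23.2% and 27.7% in those of CC080F1. CC075F1 replicate 2 was the highest section, and CC080F1 replicate 2 lay above CC075F1 replicate 1, so the strains overlapped. The mean was 29.9% ± 5.56 (SD, n = 2) for CC075F1, 1.18 times that for CC080F1, 25.4% ± 3.17 (SD, n = 2) (two-sided exact permutation test, p = 0.667; 2 against 2 sections cannot give a p below 0.33). Large and small subunit genes kept nearly the same proportion, the summed Rpl UMIs being 1.25, 1.20, 1.25 and 1.24 times the summed Rps UMIs in the same order of sections. The lowest of these ratios belonged to CC075F1 replicate 2, where the whole family was highest. That section also had the most skeletal muscle marker UMIs (8 genes, 175 CPM against 3.93 to 19.5 CPM in the others), erythrocyte marker UMIs (5 genes, 387 CPM against 23.9 to 157 CPM) and the lowest mitochondrial share (1.70% against 2.04% to 2.38%). Without its 34 spots of skin, muscle or fat its ribosomal protein share was 33.9%, and without mitochondrial UMIs 34.4%; the part of erythrocytes was not tested.

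**Figure D1:**
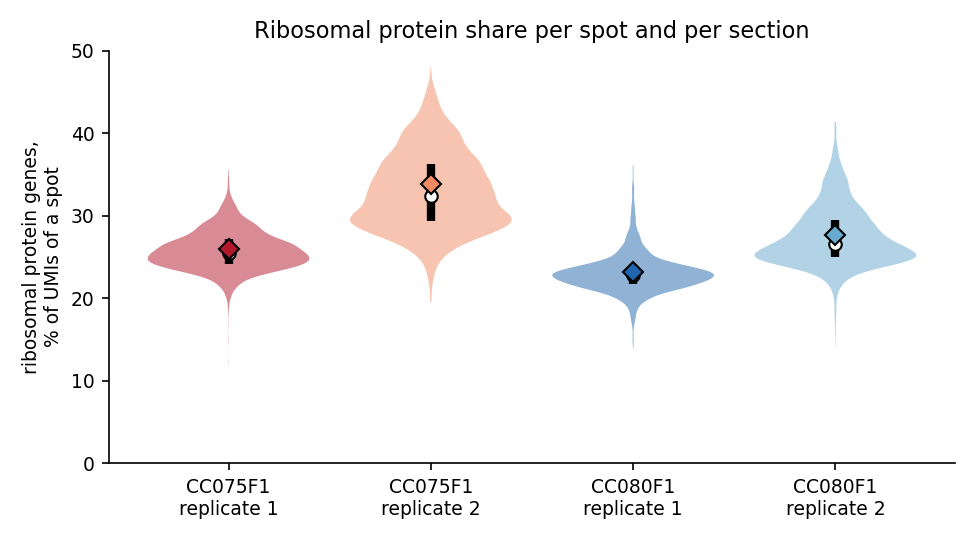
Share of each spot's UMIs from the 82 ribosomal protein genes (vertical axis, %), as 1 violin per section; the white circle is the median over spots, the black bar spans the lower to the upper quartile and the diamond is the share in the summed section. CC075F1 replicate 2 lies highest (33.8%) and has the widest spread, and the other CC075F1 section (25.9%) lies below CC080F1 replicate 2 (27.7%).

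Single members were then compared between strains in counts summed over each section. None of the 81 members tested passed an adjusted p of 0.05 (edgeR quasi-likelihood test), as against 14 of 15572 genes (0.0899%), and none had an unadjusted p under 0.05 in this fit (3.19% of all genes did on the higher side and 2.25% on the lower). DESeq2 also called 0 members (1.25% of all genes), with 27 at an unadjusted p under 0.05, all higher in CC075F1 (4.64% of all genes were). Rpl10l was listed at 0 in every section and was not tested. With TMM scaling the median log2 fold change of members, CC075F1 over CC080F1, was 0.59 against -0.02 over all genes tested, and 81 of 81 members were positive (47.5% of all genes). With scaling by library size alone the member median was 0.22 against -0.31 over all genes, and 67 of 81 were positive (21% of all genes). The shift rested on 1 section: without CC075F1 replicate 2 the member median was 0.07 under TMM, and without CC075F1 replicate 1 it was 1.00.

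Some members broke from this common shift. Rps2, a small subunit protein near the path by which mRNA enters, stood at 5216 and 9314 CPM in CC075F1 tumors against 4385 and 5402 CPM in CC080F1 tumors. Its level was highest by far in CC075F1 replicate 2, while the other CC075F1 section lay below CC080F1 replicate 2. Its log2 fold change of 0.97 ± 0.62 (SE) was the highest of the members at 10 CPM or more, and it ran from 0.14 to 1.5 when sections were left out in turn. Rps29, one of the shortest small subunit proteins, went the other way, at 2486 and 2167 CPM in CC075F1 tumors against 3039 and 2514 CPM in CC080F1 tumors. It was lowest in the section in which the family as a whole was highest, and both CC075F1 sections lay below both CC080F1 sections. Its log2 fold change of 0.07 ± 0.41 was the lowest of these members, and the direction turned with library size scaling, to -0.26.

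Besides Rps2, members far above the family median included Rpl13 and Rpl15, core subunit proteins with log2 fold changes of 0.86 and 0.81. Rpl13 stood at 8345 and 12707 CPM in CC075F1 tumors against 6277 and 8776 CPM in CC080F1 tumors. Rpl15 was one of 9 members for which both CC075F1 sections (2609 and 3619 CPM) lay above both CC080F1 sections (2118 and 2494 CPM), a pattern seen in 6.63% of all genes. Besides Rps29, the members farthest below the median were Rps28, Rpl38, Rpl7l1 and Rps21, at 0.14, 0.20, 0.22 and 0.24. Rpl38, a large subunit protein known for its part in translation of Hox mRNAs in mouse embryos, stood at 3932 and 3755 CPM in CC075F1 tumors against 3938 and 4455 CPM in CC080F1 tumors. It was 1 of 6 members (Rps29, Rps27, Rpl37a, Rpl38, Rpl39, Rpl7l1) that lay lower in both CC075F1 sections, as 30.3% of all genes did. None of these named members passed the adjusted threshold between strains in any of the fits tried.

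The same members were set against the family itself by scaling each section to its summed ribosomal protein UMIs. Under this scaling no member passed the adjusted threshold (0.405% of all genes did). At an unadjusted p under 0.05, Rps2 (0.31 ± 0.13) and Rpl13 (0.25 ± 0.11) were higher in CC075F1 and Rps29 (-0.47 ± 0.18), Rps28 (-0.43 ± 0.18), Rpl38 (-0.33 ± 0.15) and Rps21 (-0.29 ± 0.13) were lower (log2 fold change ± SE). These were 2 and 4 of 81 members, against 0.835% and 2.65% of all genes. As a part of the family's UMIs, Rps2 took 2.01% and 2.76% in CC075F1 tumors against 1.89% and 1.95% in CC080F1 tumors, and Rpl38 took 1.51% and 1.11% against 1.70% and 1.61%. The strains did not overlap for either gene. Rps29 took 0.958% and 0.641% against 1.31% and 0.909%, so its strains overlapped. Over all members, 19 took a larger part of the family in both CC075F1 sections than in both CC080F1 sections and 10 a smaller part (3.08% and 23.5% of all genes, whose median log2 fold change under this scaling was -0.50). Scaling to the family total centres the members near 0 (median -0.02). The shares of all genes are therefore not a like background, and neither count was tested.

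The 5 members lowest against the family median were, but for 1, short. Coding lengths were 168, 207, 210 and 249 bases in Rps29, Rps28, Rpl38 and Rps21 and 879, 633 and 612 bases in Rps2, Rpl13 and Rpl15. Rpl7l1, at 738 bases, was the exception. Long members were below the family too: Rpl4 (1257 bases), Rpl3 (1209 bases) and Rpl5 (891 bases) had family-scaled log2 fold changes of -0.26, -0.18 and -0.18, none past the test. Across the 79 members at 10 CPM or more, the TMM log2 fold change and the coding length had a Spearman rho of 0.52. These are genes of the same 4 libraries and not independent replicates. For the family share in CC075F1 replicate 2 over CC080F1 replicate 1 alone, rho with coding length was 0.43. As log2 deviations from the mean of the 4 sections, the family share of Rps28 was 0.02 and -0.44 in CC075F1 tumors against 0.50 and -0.08 in CC080F1 tumors. Its strains thus overlapped, as for Rps29. Whether RNA quality or fragment length differed between sections was not tested.

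**Figure D2:**
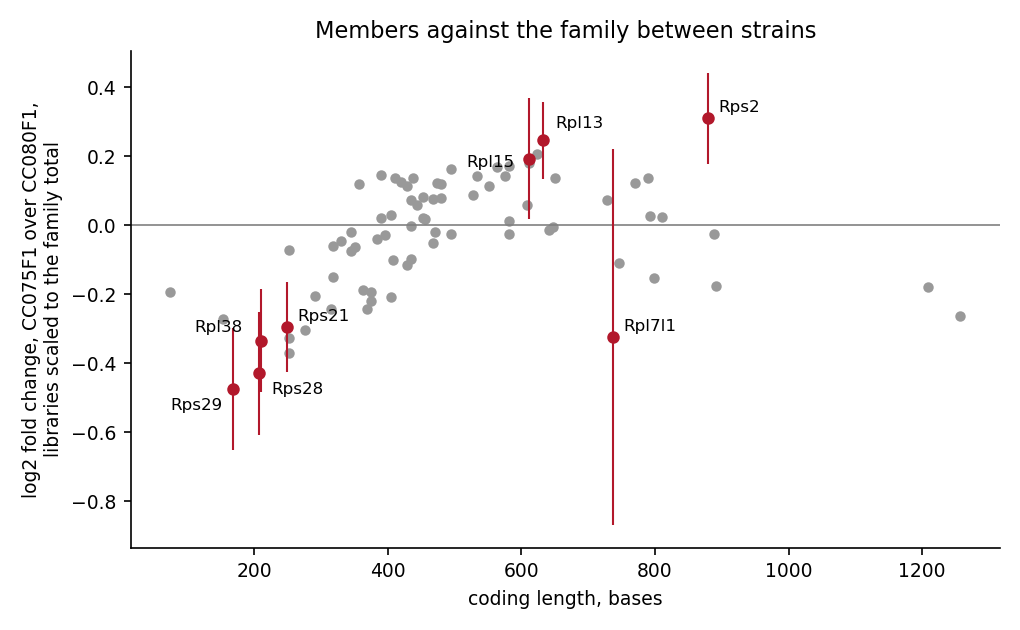
Log2 fold change between CC075F1 and CC080F1 with sections scaled to the family total (vertical axis) against coding length in bases (horizontal axis) for the 79 members at 10 CPM or more; red points with bars are the members named in the text for their distance from the family median between strains, with their standard errors from edgeR. Rps29, Rps28, Rpl38 and Rps21 sit at short coding lengths below 0, and Rps2 (0.31) is the highest point.

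The next comparison was between tumor edge and interior, the edge being spots within 3 grid steps of a position off the tissue. The family took a smaller part of UMIs at the edge in 3 of 4 sections. It took 24.02% at the edge and 26.2% in the interior of CC075F1 replicate 1, 30.8% and 34.3% in CC075F1 replicate 2, 22.4% and 23.5% in CC080F1 replicate 1, and 28.1% and 27.6% in CC080F1 replicate 2. The ratios of edge to interior were 0.915 and 0.899 in CC075F1 tumors against 0.954 and 1.02 in CC080F1 tumors. The strains did not overlap, and the mean difference was -0.0802 (exact permutation test, two-sided, p = 0.33, the smallest that 2 against 2 sections allow).

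By distance, the share was higher farther from the rim in CC075F1, from 23.6% at the first step to 27.4% at 16 steps and beyond in replicate 1, and from 29.8% to 35.1% in replicate 2. In CC080F1 replicate 1 it went from 21.8% at the first step to 23.8% at steps 10 to 12, and then 23.3% at steps 13 to 15. In CC080F1 replicate 2 it stayed between 27.3% and 28.5% throughout. Edge spots were shallower in every section, with medians of 18036, 25171, 30120 and 26855 UMIs against 33592, 46146, 34844 and 37003 UMIs in the interior, and their mitochondrial share was higher (2.89%, 2.04%, 2.53% and 2.64% against 2.01%, 1.65%, 2.32% and 1.92%). Compared within 10 strata of spot depth the ratios were 0.919 and 0.925 in CC075F1 tumors against 0.950 and 0.994 in CC080F1 tumors, an alternative chosen after seeing the data, so the strains still did not overlap but the last section no longer lay above 1. Some markers of other cell types were also higher at the edge: 3 of 4 neutrophil markers tested passed (Retnlg, S100a8, S100a9), 2 of 6 fibroblast (Col1a1, Col1a2), 1 of 9 T or NK cell (Thy1) and 1 of 5 tumor or epithelium markers (Krt18). None passed of 6 endothelial, 9 monocyte or macrophage, 2 B cell, 8 skeletal muscle, 5 adipocyte and 5 erythrocyte markers (edgeR, adjusted p under 0.05). The calls of Retnlg (0.0605 to 0.143 CPM per section) and Krt18 (0.0107 to 0.213 CPM) rest on few UMIs. Csf3r, the neutrophil marker tested that did not pass, was more abundant, at 2.51 to 4.64 CPM. The epithelial list could not mark tumor cells, as stated above. Over whole lists, edge to interior ratios in CC075F1 replicates 1 and 2, then CC080F1 replicates 1 and 2, were 2.12, 3.98, 1.43 and 2.45 for neutrophil markers (summed level 4.98 to 6.88 CPM per section), and 2.03, 2.07, 1.13 and 1.34 for endothelial markers (48.4 to 119 CPM). They were 0.901, 2.83, 0.918 and 1.22 for fibroblast markers (1019 to 2762 CPM) and 1.52, 1.88, 1.09 and 1.68 for T or NK cell markers (38.0 to 78.6 CPM). Both CC075F1 sections had the higher endothelial ratios and the lower ribosomal protein ratios. The part of these cells in the edge values was not tested.

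**Figure D3:**
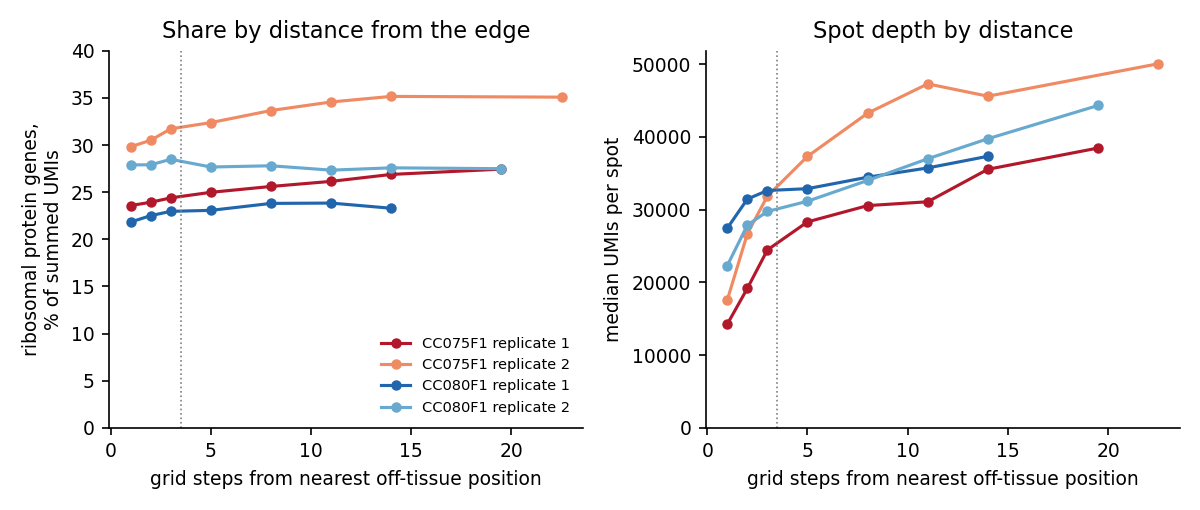
Share of summed UMIs from ribosomal protein genes (left, %) and median UMIs per spot (right) against the distance from the nearest off-tissue position in grid steps, with 1 line per section and points at the middle of each distance bin; the dotted line bounds the edge. Both CC075F1 lines climb inwards (23.6% to 27.4% and 29.8% to 35.1%), CC080F1 replicate 2 stays between 27.3% and 28.5%, and depth is lowest at the first step in all 4 sections.

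No single member passed the adjusted threshold between edge and interior over the 4 sections (0 of 81 members and 166 of 15089 genes, 1.1%, edgeR with the section as a block). At an unadjusted p under 0.05, 1 member (Rpl3l, with few UMIs) was higher and 4 (Rpl21, Rps4x, Rpl10 and Rpl29) were lower at the edge (10.3% and 8.05% of all genes), and the median log2 fold change, edge over interior, was -0.14 in members and -0.02 in all genes, or -0.07 and 0.05 with library size scaling. DESeq2 called 1 member, Rpl29 (4.18% of all genes), with 31 lower and 0 higher at an unadjusted p under 0.05 (7.14% and 7.99% of all genes). In CPM, 23 members were lower at the edge in all 4 sections (6.88% of all genes) and 1, Rpl36al, was higher in all 4 (17.6%), by no more than 0.02 on the log2 scale.

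The members with the lowest values at the edge were Rpl21, Rps4x, Rpl23, Rpl10 and Rpl29. Rpl21, a large subunit protein, had edge to interior log2 ratios of -0.46 and -0.29 in CC075F1 tumors against -0.09 and -0.08 in CC080F1 tumors. Rps4x, the X-linked form of small subunit protein S4, had -0.35 and -0.36 in CC075F1 tumors against -0.08 and -0.07 in CC080F1 tumors. For both genes all 4 sections were below 0, and the CC075F1 sections were the lower. Rpl10, another X-linked gene, whose protein joins the large subunit late in its assembly, had -0.24 and -0.29 in CC075F1 tumors against -0.15 and -0.03 in CC080F1 tumors. At the other end were Rpl7l1, Rpl27, Rps14, Rpl7a and Rpl38, with fitted log2 fold changes between -0.04 and 0.02. Rpl27 had ratios of 0.14 and 0.03 in CC075F1 tumors against -0.04 and 0.14 in CC080F1 tumors, and Rps14 had 0.06, 0.02, -0.05 and 0.20 in the same order. In CPM, Rpl27, Rps14 and Rpl7a were above their interior level at the edge of both CC075F1 sections, but in the TMM fit of those sections they were at -0.03, -0.08 and -0.06. In CPM, 66 and 72 of 81 members were lower at the edge of CC075F1 replicates 1 and 2 (38.7% and 27% of all genes), 76 in CC080F1 replicate 1 (48.4%) and 27 in CC080F1 replicate 2 (54.4%).

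**Figure D4:**
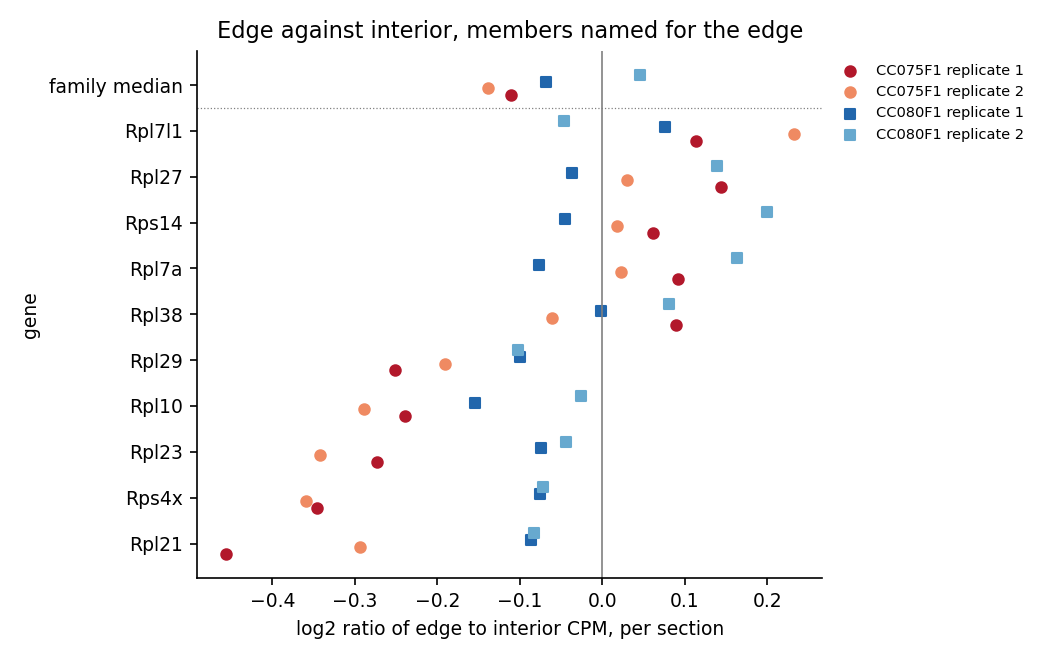
Log2 ratio of edge CPM to interior CPM (horizontal axis) in each section for the 5 members with the lowest and the 5 with the highest fitted edge change, and the median of the 79 members at 10 CPM or more (top row); circles are CC075F1 and squares CC080F1 sections. The point farthest to the left is Rpl21 in CC075F1 replicate 1 (-0.46), the CC080F1 points of the lower 5 genes lie between -0.15 and -0.03, and Rpl27 and Rps14 lie near or above 0 in most sections.

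The difference of the edge change between strains was tested as an interaction, and 0 members passed (0.106% of all genes); 1 (Rpl39l, at about 1 CPM) was higher and 8 were lower in CC075F1 at an unadjusted p under 0.05 (4.4% and 4.1% of all genes). The interaction for Rpl21 was -0.44 ± 0.15 on the log2 scale (adjusted p = 0.446) and for Rps4x -0.43 ± 0.15 (adjusted p = 0.478, both edgeR). In a fit of the CC075F1 sections alone, added after seeing the data, 5 of 80 members were called, all lower at the edge (Rpl21, Rps4x, Rpl10, Rps7 and Rpl23; 3.27% of all genes were called), and in CC080F1 tumors alone 0 of 81 (0.494%). Since the interaction did not pass, the strains were not shown to differ.

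Across the spots of a section the family's share varied several times more than counting noise. Its SD over spots was 2.33 and 4.67 percentage points in CC075F1 tumors against 2.35 and 3.56 in CC080F1 tumors, and counting noise made up at most 2.25% of the variance. The ratio of mean SDs was 1.18 (exact permutation p = 1), and the highest and lowest sections were both CC075F1. Neighbouring spots were alike: Moran's I (spatial autocorrelation over the 6 nearest neighbours, 0 for no pattern) was 0.640 and 0.822 in CC075F1 tumors against 0.798 and 0.779 in CC080F1 tumors (exact permutation p = 1). The highest spot values were 35.5%, 48.1%, 36.1% and 41.4% in CC075F1 replicates 1 and 2 and CC080F1 replicates 1 and 2.

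The share moved across spots with some gene lists and against others. In spots of at least 10000 UMIs (2549 to 3174 per section), the ratio of ribosomal protein UMIs to other UMIs was compared with each list's share of those other UMIs; spots of a section share depth and neighbours, so the coefficients are descriptions. In CC075F1 replicates 1 and 2 and then CC080F1 replicates 1 and 2, coefficients were high for 7 ribosome-associated genes outside the naming rule (Spearman rho 0.83, 0.91, 0.83 and 0.86), elongation factors (0.64, 0.84, 0.64 and 0.64) and 5 other TOP mRNAs such as Tpt1 and Naca (0.62, 0.90, 0.60 and 0.74), and lower for 29 initiation factors (0.23, 0.58, 0.01 and 0.35). Hypoxia genes (Vegfa, Slc2a1, Pgk1, Ldha and 6 others) had rho of 0.72, 0.83, 0.47 and 0.82, and cell cycle genes (Mki67, Top2a, Pcna and 9 others) had -0.45, -0.52, -0.34 and -0.64. Ribosome biogenesis factors such as Ncl and Fbl had -0.15, -0.15, -0.33 and -0.19, and mitochondrial ribosomal proteins -0.18, -0.06, -0.09 and -0.15. Spots rich in ribosomal protein mRNA were thus, in each section, richer in the summed hypoxia list and poorer in the summed cell cycle list. The hypoxia sum rested mostly on 2 abundant genes of glycolysis. In CC075F1 replicate 1, Ldha had 1540 and Pgk1 1205 of its 3217 CPM, against 99.7 for Vegfa and 75.3 for Slc2a1. Coefficients of single genes were not computed. Endothelial markers had -0.41, -0.42, -0.35 and -0.41.

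The hypoxia list had ratios of edge to interior of 0.742 and 0.790 in CC075F1 tumors against 1.05 and 1.24 in CC080F1 tumors. Macrophage markers had rho of -0.09, -0.54, -0.17 and -0.31 with the ribosomal protein share, and T or NK cell markers -0.27, -0.49, -0.17 and -0.36. The part of these cells in the spread of the family was not tested.

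Within the family, members did not keep fixed proportions from spot to spot. The dispersion of each member's UMIs around its section-wide part of the family (1 where counting noise is the only source) was highest for Rpl21 (median over sections 6.48), Rps2 (5.77), Rpl41 (5.70), Rps12 (4.77) and Rps20 (4.44), and lowest, among members at 10 CPM or more, for Rps27rt (1.09) and Rps13 (1.17). Rps2 had 4.73 and 14.6 in CC075F1 tumors against 3.31 and 6.81 in CC080F1 tumors, with CC075F1 replicate 2 far above the others. The measure grows with the number of UMIs, and all 5 of the highest are abundant members. As a coefficient of variation beyond counting noise, which does not grow in this way, the median member had 8.65%, Rps2 16.4%, Rpl21 15.3% and Rpl41 11.6%. The highest by this measure were Rpl7l1 (30.4%), Rps19bp1 (24.2%) and Rps27l (23.9%), which are a factor of the nucleolar pre-ribosome, a binding partner of Rps19 and a paralog of Rps27. Rps13 had the lowest (4.50%).

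**Figure D5:**
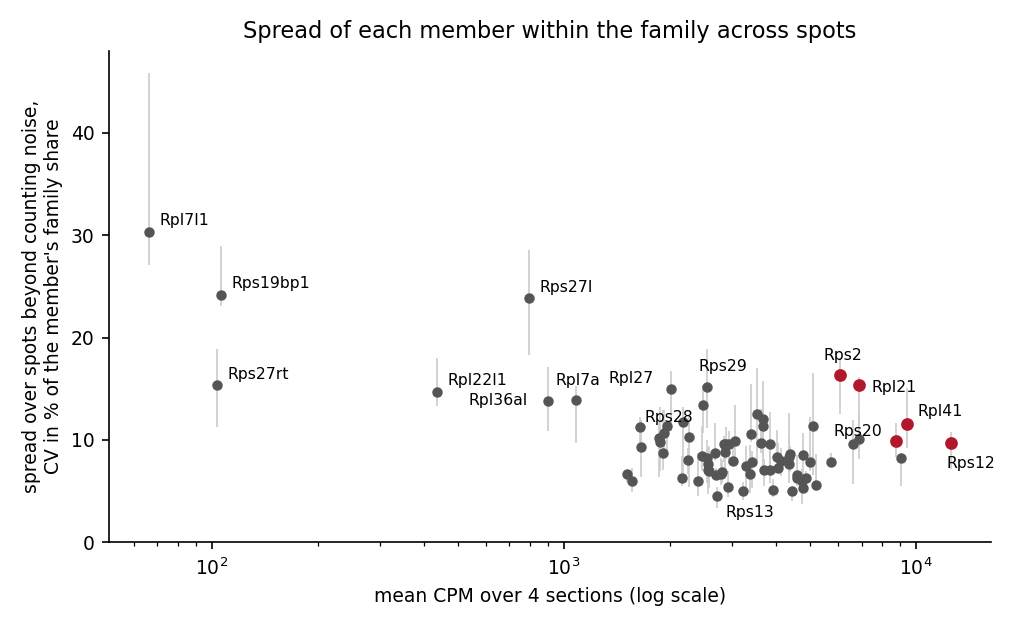
Coefficient of variation over spots beyond counting noise of each member's part of the family's UMIs (vertical axis, %; point, median over 4 sections; bar, lowest to highest section) against its mean CPM (log axis) for the 79 members at 10 CPM or more; red marks the 5 members with the highest dispersion. Rpl7l1 (30.4%), Rps19bp1 (24.2%) and Rps27l (23.9%) stand above the rest, and Rps2 (16.4%) and Rpl21 (15.3%) are the highest of the abundant members.

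Member proportions were also compared between spots rich and poor in ribosomal protein mRNA. Spots in the top and bottom quartile of the family's share within a section were summed, a description chosen after seeing the data, and each member's part of the family was compared between them. Rpl7l1 had log2 ratios (top over bottom) of -0.74, -1.41, -0.80 and -1.06 in CC075F1 replicates 1 and 2 and CC080F1 replicates 1 and 2. Rps27l had -0.66, -0.88, -0.54 and -0.76, and Rps19bp1 had -0.50, -0.77, -0.62 and -0.59. Each of these genes thus rose less than the family from bottom to top spots in every section. The spots were split by the family's share, and members were divided by the family total. A gene that does not rise with the family is therefore below 0 by construction, and no background of other genes was computed. Among core subunits Rps2 (-0.24, -0.51, -0.18 and -0.38) and Rpl41 (-0.23, -0.44, -0.17 and -0.34) also took a smaller part where the family was high. Rps7, a small subunit protein, took a larger part (0.31, 0.38, 0.14 and 0.34).
Rps2 therefore had opposite signs on 2 scales: its part of the family was highest in the section with the highest family share, but within every section it was lower in the spots with the highest family share. Rps29 had -0.18, -0.38, 0.02 and -0.43 within sections.

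The paralogs and other non-core members were followed whatever their values. Rpl22l1, a paralog of Rpl22, stood at 392 and 497 CPM in CC075F1 tumors against 420 and 437 CPM in CC080F1 tumors, and Rpl36al, a paralog of Rpl36a, at 861, 1049, 812 and 884 CPM in the same order; for both genes the strains overlapped. Rps27l was higher in both CC075F1 sections (798 and 880 CPM against 751 and 756 CPM), as was Rps19bp1 (105 and 134 CPM against 87.0 and 101 CPM), with log2 fold changes of 0.50 ± 0.36 and 0.71 ± 0.32 that did not pass the test. Rpl3l, which replaces Rpl3 in striated muscle, had 10, 53, 19 and 29 UMIs in the 4 sections, and 16 of the 53 in CC075F1 replicate 2 lay in the 34 spots with skin, muscle or fat markers. Rpl39l, known from the male germ line, stood at 0.678 to 1.14 CPM. Rpl10l, also a germ line paralog, was listed at 0 UMIs, for which 3 UMIs allow up to 0.0363 and 0.0205 CPM in CC075F1 tumors against 0.0321 and 0.0266 CPM in CC080F1 tumors (counting error only).

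Rps27rt, a copy of Rps27 on chromosome 9 (114982366 to 114982739, GRCm38), has a coding sequence that is 100% identical to that of Rps27, so the division of reads between the genes is uncertain, although the last 100 bases of the annotated transcripts were only 50.4% identical. It was listed at 87.9 and 112 CPM in CC075F1 tumors against 134 and 79.6 CPM in CC080F1 tumors. Its highest section was CC080F1 replicate 1, where the family as a whole was lowest. The coding sequence of Rps27l was 77.3% identical to that of Rps27, and its last 100 bases 49.2%.

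The other genes of the translation machinery gave no calls between strains. None of the 7 ribosome-associated genes outside the rule passed (median log2 fold change 0.62), and none of 7 elongation factors (0.41), 29 initiation factors (0.15), 26 ribosome biogenesis factors (0.02), 5 other TOP mRNAs (0.50) or 78 mitochondrial ribosomal proteins (0.46), beside a median of 0.59 in the ribosomal protein genes and -0.02 in all genes. Among the ribosome-associated genes, Fau, which encodes small subunit protein S30 fused to a ubiquitin-like domain, stood at 5585 and 8431 CPM in CC075F1 tumors against 4202 and 6086 CPM in CC080F1 tumors. Eef1a1, the elongation factor that brings aminoacyl-tRNA to the ribosome and itself a TOP mRNA, had 6266, 5484, 6807 and 6279 CPM and was lowest in the section where the ribosomal protein genes were highest. Between edge and interior none of these 6 lists had a gene that passed the test, with medians between -0.14 and -0.03.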

How the data were processed

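The authors aligned reads of each capture area to GRCm38 (10x Genomics mm10 reference with GENCODE vM23) with Space Ranger 1.3.1. They deposited raw UMI counts per gene and spot, for spots under tissue, with grid positions; no normalised values were used here. Members and gene lists were chosen with earlier results of these data known.

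Counts were summed per section, and for the edge contrast per section and zone. After the filterByExpr step, quasi-likelihood models were run in edgeR 4.0.16 under R 4.3.3 on TMM-scaled libraries, with Benjamini-Hochberg adjustment over all genes and a threshold of 0.05. DESeq2 1.42.0, limma-voom (limma 3.58.1), other scalings, filters and samples were alternatives. On simulated data with 200 changed genes the strain fit (15548 genes) recovered 26% of 2-fold and 99% of 4-fold changes, with 5 false calls among 130, and the edge fit (14911 genes) 80% and 100%, with 11 false among 191. The simulated counts had the same dispersion, 0.05, for every gene, so these rates need not hold for the real sections. In the real strain fit Cd8a, with a log2 fold change of 2.70, did not pass (edgeR, adjusted p = 0.078). Section values were compared by exact permutation. Section totals of 82594649 to 146460975 UMIs leave little counting error in abundant members. This does not hold for Rpl3l (10 to 53 UMIs per section) and Rpl39l (56 to 165 UMIs). Intervals between tumors rest on 2 sections per strain. PCR copies were collapsed by UMI.

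Named members were those past the adjusted threshold (none), the 5 farthest above and below the family median at 10 CPM or more in the strain and in the edge contrast, the 5 of highest dispersion, and a fixed list of paralogs, of which Rps4l was not analysed here. Any other member named was chosen after its values were seen. Some members that the rule picks are not reported here. Replicate numbers were not treated as pairs in the main fit, and the labels do not say whether they mark any. Same-numbered sections' deviations correlated at 0.165, but with 2 sections per strain this is a single correlation that cannot settle the question. Positions and coding lengths came from GENCODE vM21 on the same build.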

Additional observations from a re-analysis of the deposited data

Results flagged for a closer look

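The naming rule left out symbols that contain -ps, and 3 of these processed copies had UMIs well above the 3 that were taken as a floor in every section, which flagged them as signal outside the main comparisons. Rpl9-ps6 had 34937 UMIs over the 4 sections (59.2 and 103 CPM in CC075F1, 88.8 and 58.8 CPM in CC080F1), Rpl10-ps3 had 24545 (46.5, 63.8, 69.2 and 43.3 CPM in the same order) and Rpl36a-ps1 had 18192 (38.4, 47.9, 40.2 and 37.6 CPM). The other 2 such symbols, Rpl9-ps1 and Rpl36-ps4, had at most 5 UMIs in a section. For Rpl9-ps6, Rpl10-ps3 and Rpl36a-ps1, as for Rps27rt, CC075F1 replicate 2 and CC080F1 replicate 1 were the higher sections. Reads of such copies can be hard to tell from those of the parent gene, and their share in these counts was not tested. With 2 sections per strain no group was large enough for a search for outlying sections.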

How the results depend on the processing

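The strain ratio of the ribosomal protein share stayed between 1.17 and 1.18 under the 8 alternative definitions of the share or of the spots. Leaving out a section gave 1.02 to 1.33. In the same way the strain ratio of the spot SD ran from 0.788 to 1.58 and that of Moran's I from 0.811 to 1.04, so both turned direction, while the ratio of the edge to interior ratios ran from 0.889 to 0.950. The count of members called between strains was 0 in every alternative, and in the fit with a replicate block it was also 0. In all, 287 genes were called with the block and 14 without it. The labels do not say whether equal replicate numbers share a batch, and the cause was not tested. The interaction count was 0 throughout. The edge count was 0 in all alternatives but 2, with 1 member in DESeq2 and 5 in the CC075F1 sections alone; the cause was not tested. All genes called between strains rose to 480 with no filter and 194 in DESeq2. At the edge they rose to 749 with family scaling and 630 in DESeq2, and fell to 0 when the section block was left out. In each of these fits but the DESeq2 edge fit 0 members were called. Without 1 section, the calls over all genes ran from 11 to 207 between strains, from 4 to 946 at the edge and from 1 to 501 for the interaction. Of 364 alternative values of 28 named members between strains, 0 passed the threshold and 35 changed sign, 16 of them under family scaling and 10 without CC075F1 replicate 2. Of 252 edge values 10 changed sign.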
